A study of Mus musculus with 48 samples.

Results

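The IGHV3 family, known in older work as the 36-60 genes, is a small group of heavy chain variable genes of the mouse. Its members here were the genes IGHV3-1, IGHV3-3, IGHV3-4, IGHV3-5, IGHV3-6 and IGHV3-8, taken wherever a sequence was assigned to one of them, and they were 6 of the 148 V genes named in 48 libraries. A clonotype was defined by its V gene, its J gene and the amino acids of its HCDR3. Summed over the mice, the family made up 2059 of 40605 clonotypes in the lacrimal gland (LG) and 144822 of 3464316 in the spleen.

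The libraries were BCR heavy chain amplicons of LG and spleen RNA from 24 C57BL/6 (B6) mice. The 10 NOD-FMT mice received fecal microbiota of NOD.B10.H2b mice, a strain with autoimmune dry eye disease, by daily oral gavage for 3 weeks from an age of 5 weeks, and the 9 PBS-T mice received PBS alone by the same route and schedule. Cages of these mice had exchanged feces, and an antibiotic cocktail of ampicillin, vancomycin and metronidazole was given in drinking water for 7 days, before the gavage. The donor feces came from 30 male mice over 20 weeks old. The 5 untreated mice (NC) were of the same strain, and their age is not given in the sources used here. The libraries measured whole tissue RNA, so more B cells and more heavy chain RNA per cell cannot be told apart.

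A developing B cell joins a V, a D and a J gene to form the heavy chain that it expresses, and the junction encodes HCDR3, the loop that usually contributes most to antigen contact. CDR1 and CDR2 are encoded by the V gene itself. A naive B cell expresses the rearrangement as unmutated IgM and IgD, and after activation the V region can acquire point mutations and the constant region can switch to IgG or IgA. The LG is a site of IgA plasma cells, whose antibody is secreted into tears.

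The 6 genes lie on the minus strand of chromosome 12 between positions 113964388 and 114322801 (chr12:113964388-114322801, GRCm38), a stretch of 358 kb. IGHV3-6 is at chr12:114288152-114288582 and IGHV3-4 at chr12:114253617-114254051, each with a leader exon and a second exon that encodes the V domain. From the primer end to the conserved cysteine before HCDR3, the most frequent unmutated sequence of each member was identical to its second exon in the annotation. Identity between members over this stretch ranged from 78.4% (IGHV3-3 and IGHV3-4) to 92.9% (IGHV3-1 and IGHV3-6). The sequences of IGHV3-6 (chr12:114288160-114288425) and IGHV3-4 (chr12:114253625-114253893) are shown since the results turn on these genes, with CDR1 and CDR2 in capitals.
IGHV3-6: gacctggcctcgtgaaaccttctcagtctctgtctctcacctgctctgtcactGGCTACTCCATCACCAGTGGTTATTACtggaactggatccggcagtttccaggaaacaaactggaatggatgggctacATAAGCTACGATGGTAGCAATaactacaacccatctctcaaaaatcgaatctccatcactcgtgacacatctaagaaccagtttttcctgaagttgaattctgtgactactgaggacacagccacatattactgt
IGHV3-4: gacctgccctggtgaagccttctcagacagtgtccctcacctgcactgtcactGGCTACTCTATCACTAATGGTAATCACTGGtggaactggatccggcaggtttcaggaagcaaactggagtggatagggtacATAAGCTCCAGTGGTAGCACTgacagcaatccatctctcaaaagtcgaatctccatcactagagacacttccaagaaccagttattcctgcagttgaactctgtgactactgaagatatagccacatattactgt

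CDR1 and CDR2 are where the members differ in antigen contact, and they are given below with the bases that differ from IGHV3-6 in capitals, after alignment where the lengths differ. CDR1 had 27 bases in IGHV3-1, IGHV3-3 and IGHV3-6, 30 bases in IGHV3-4 and IGHV3-5, and 24 bases in IGHV3-8, which lacks 3 bases of IGHV3-6 across a pair of neighbouring codons and otherwise has its bases. CDR2 had 21 bases in every member.
IGHV3-1 CDR1: ggctactccatcaccagtggttatGac
IGHV3-3 CDR1: ggctTctccatcaAcagtgAttGttac
IGHV3-4 CDR1: ggctactcTatcacTaAtggtAatCacTGG
IGHV3-5 CDR1: ggcATTtccatcaccaCtggAAattacAGG
IGHV3-6 CDR1: ggctactccatcaccagtggttattac
IGHV3-8 CDR1: ggctactccatcaccagtgattac
IGHV3-1 CDR2: ataagctacAGtggtagcaCt
IGHV3-3 CDR2: aCaTTctacAGtggtaTcaCt
IGHV3-4 CDR2: ataagctCcAGtggtagcaCt
IGHV3-5 CDR2: ataTActacAGtggtaCcaTt
IGHV3-6 CDR2: ataagctacgatggtagcaat
IGHV3-8 CDR2: ataagctacAGtggtagcaCt

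The deposited libraries held 40513 to 360216 counts in the LG and 86717 to 2302185 in the spleen, where a count is 1 consensus sequence. LG libraries held 54009 to 341412 counts in NOD-FMT and 57398 to 80834 in NC mice. In PBS-T mice they held 40513 to 113692 counts, apart from mouse 5 with 360216. Depth in the LG thus went partly with group, and its effect on the shares was not tested. After removal of sequences shared by more than 2 mice, 560 to 17213 clonotypes remained per LG library and 23002 to 593820 per spleen library. The LG library of PBS-T mouse 5 stood apart with 17213 clonotypes, 1091 of them of the family, while the next highest had 2504. Of the LG files, 11 of 24 carry the word merged in their names, from 6 NOD-FMT, 4 PBS-T and 1 NC mice. V allele calls that made up under 1 in 100000 of the spleen sequences were 0.244 to 7.1% of the sequences in these libraries and 0 to 0.457% in the 13 others, and 74.4% of such LG sequences were IgM against 4.99% of all other LG sequences. Among member sequences of the LG, 110 of 8629 carried such an allele (an allele numbered 02), against 4 of 179319 in the spleen. PBS-T mouse 5 held 5202 of these LG sequences, 23 of them with such an allele. The highest part was 16 of 50 in PBS-T mouse 3. IgA held 94.6 to 98.7% of LG counts in NOD-FMT, 88.6 to 97.8% in NC and 13.9 to 97.1% in PBS-T mice. Results in the LG are therefore given also for IgA alone, without the rare allele calls, and for the merged and other libraries apart.

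In the LG, IGHV3 clonotypes were fewer in NOD-FMT mice than in either control group. Their share of clonotypes was 3.06% ± 1.09 (SD, n = 10) in NOD-FMT mice, with a lowest value of 1.9%, a median of 2.78% and a highest of 5.27%. In PBS-T mice it was 5.11% ± 1.43 (n = 9), from 3.04% through a median of 4.91% to 7.48%. The 5 NC mice had 7.98, 4.93, 5.23, 6.87 and 5.12%. NOD-FMT and PBS-T values overlapped between 3.04 and 5.27%, and of the NOD-FMT mice only mouse 3, at 5.27%, reached the range of the NC mice.

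NOD-FMT mice were 2.04 percentage points below PBS-T mice (two-sided exact permutation test, p = 0.00332, adjusted p = 0.00997 over 6 group comparisons). They were 2.96 points below NC mice (exact permutation p = 0.00133, adjusted p = 0.00799). PBS-T and NC mice differed by -0.92 points (exact permutation p = 0.259, adjusted p = 0.491). Each pair of these comparisons shares a group of mice, so they are not independent of each other.

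At 10 or more counts the difference from PBS-T of -1.6 points did not pass (exact permutation p = 0.0543). Restriction to IgA clonotypes left a difference of -1.93 points from PBS-T (exact permutation p = 0.00736) and -3.18 points from NC (p = 0.000333). Without the rare allele calls the differences were -1.99 and -3.21 points. Within the merged libraries the difference from PBS-T was -1.64 points (p = 0.0381), and within the other libraries it was -2.53 points, or -2.45 points for IgA alone, neither of which passed the threshold (exact permutation p = 0.0635 each). With 1 NC mouse among the merged libraries, NC was not compared within them. Weighted by counts instead of clonotypes, the family took 2.94% ± 2.01 of the LG repertoire in NOD-FMT, 3.56% ± 2.88 in PBS-T and 5.53% ± 3.48 in NC mice, and the differences of -0.623 and -2.6 points did not pass (exact permutation p = 0.583 and 0.0849).

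**Figure D1:**
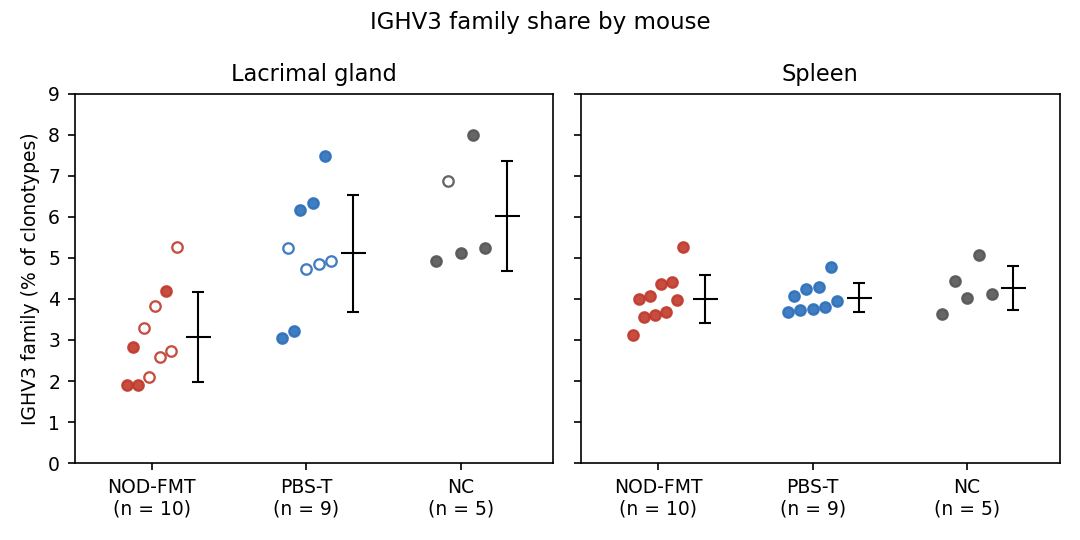
IGHV3 family share of clonotypes (%, vertical axis) by group in the LG (left) and the spleen (right), 1 point per mouse, with open points for merged LG libraries and black bars for mean ± SD. In the LG the NOD-FMT mice lie between 1.9 and 5.27% and the NC mice between 4.93 and 7.98%, whereas the groups overlap fully in the spleen.

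Among the members, IGHV3-6 was the one that passed the test gene by gene. It was also the most used, 6th of 141 V genes in the LG with a mean share of 3.02% ± 1.3 over 24 mice. Its LG share was 1.31 to 2.87% in NOD-FMT mice (median 1.7%), 2.24 to 5.33% in PBS-T mice (median 3.59%) and 4.31, 3.35, 4.22, 4.84 and 3.67% in NC mice 1 to 5. Every NOD-FMT mouse was below every NC mouse, and the NOD-FMT and PBS-T ranges overlapped between 2.24 and 2.87%.

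Fitted across all V genes with edgeR, IGHV3-6 clonotypes were 2.06-fold lower in NOD-FMT than in PBS-T mice (log2 fold change -1.04 ± 0.25 SE, adjusted p = 0.00661) and 2.22-fold lower than in NC mice (-1.15 ± 0.29, adjusted p = 0.0187). It was the only member called in each fit, 1 of 5 tested, where 3.57% and 5.36% of 112 V genes were called, and the members' median log2 fold changes were -0.57 and -0.59 against -0.21 and 0.15 over all V genes. With IgA alone the log2 fold changes of IGHV3-6 were -1.03 and -1.20 (edgeR adjusted p = 0.0432 and 0.0302). The call against PBS-T was lost in the merged libraries alone (-0.84, edgeR adjusted p = 0.282) and in the others alone (-1.22, adjusted p = 0.0547), as well as with counts of consensus sequences in place of clonotypes (-0.95, adjusted p = 0.514). The call against NC was lost when NC mouse 1, 3 or 4 was left out, with adjusted p up to 0.0787 by edgeR, with TMM scaling (-1.04, edgeR adjusted p = 0.0793), at 10 or more counts (-0.77, adjusted p = 0.0723), with counts of consensus sequences (-0.63, adjusted p = 0.853) and in the other LG libraries alone (-1.14, adjusted p = 0.116). Both calls were also lost for IgA of the other LG libraries. A replicate block, whose numbers do not pair the mice, ended the call against PBS-T.

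The other members were rarer in the LG and none of them passed in either fit. Of 2-fold changes simulated between NOD-FMT and PBS-T LG libraries, edgeR recovered a mean of 28.8%, so changes of this size could be missed. The changes were set only in V genes with more clonotypes than IGHV3-4 and IGHV3-5 had, so the value does not cover these members. IGHV3-8, with a median share of 0.464% in NOD-FMT, 0.729% in PBS-T and 0.551% in NC mice, had log2 fold changes of -0.57 ± 0.50 and -1.21 ± 0.56 (edgeR adjusted p = 0.493 and 0.289). Shares of IGHV3-1 had medians of 0.333, 0.232 and 0.445% in the same order of groups, with log2 fold changes of 0.44 ± 0.63 and -0.59 ± 0.69. IGHV3-5 was at 0.11, 0.162 and 0.194%, with -1.02 ± 0.75 and -0.36 ± 0.90. IGHV3-4 was the member with a positive estimate against both controls, at median shares of 0.138, 0 and 0.0985% and log2 fold changes of 0.99 ± 0.76 and 0.92 ± 0.94.

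IGHV3-3 had 6 clonotypes in all LG libraries together, too few for the fit. They were in NOD-FMT mouse 7 (1 clonotype) and in PBS-T mice 3, 5 and 6 (1, 3 and 1). It was not found in the NC mice, whose 898 to 1089 clonotypes per library allow shares of up to 0.275 to 0.334% (3 clonotypes of the total, counting error only).

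Between PBS-T and NC mice, 0 of 5 members were called in the LG by edgeR, as were 0% of all V genes, with 0 members at an unadjusted p under 0.05 and 0 called by DESeq2. The IGHV2, IGHV5 and IGHV6 families were counted for comparison. NOD-FMT against PBS-T called 0 of 10 IGHV2, 0 of 14 IGHV5 and 1 of 2 IGHV6 genes, the latter higher, and NOD-FMT against NC called none of them.

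**Figure D2:**
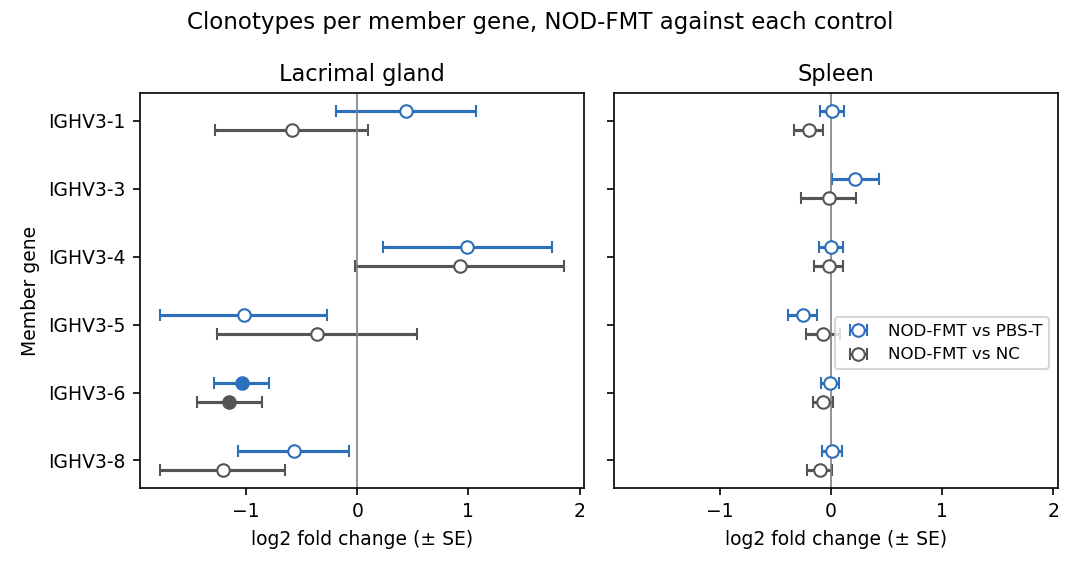
Log2 fold change ± SE of the number of clonotypes per member gene, NOD-FMT against PBS-T (blue) and against NC (grey), in the LG (left) and the spleen (right), from edgeR, with filled points for adjusted p under 0.05. IGHV3-6 in the LG is the only member with filled points, at -1.04 and -1.15, and IGHV3-3 has no LG value because it was not tested there.

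In the spleen, the family share did not separate the groups. It was 4.00% ± 0.59 in NOD-FMT mice (lowest 3.12, median 3.98, highest 5.26%), 4.03% ± 0.358 in PBS-T mice (3.67, 3.94 and 4.77%) and 4.13, 5.08, 3.64, 4.44 and 4.03% in NC mice 1 to 5. The differences were -0.0305 points (NOD-FMT minus PBS-T, exact permutation p = 0.898), -0.266 points (NOD-FMT minus NC, p = 0.409) and -0.235 points (PBS-T minus NC, p = 0.346). All 3 ranges overlapped.

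Gene by gene, 0 of 6 members were called in the spleen by edgeR in each of the 3 comparisons, where 0.847%, 0% and 0% of 118 V genes were called, with 0 members at an unadjusted p under 0.05 and 0 called by DESeq2. Log2 fold changes of the members stayed between -0.25 ± 0.13 (IGHV3-5, NOD-FMT against PBS-T) and 0.22 ± 0.21 (IGHV3-3, same comparison). None of the IGHV2, IGHV5 and IGHV6 genes was called in these comparisons either. The order of members was the same as in the LG at the top, with IGHV3-6 at 2.83% ± 0.344 (7th of 136 V genes), IGHV3-8 at 0.549% ± 0.0807, IGHV3-1 at 0.431% ± 0.0817, IGHV3-4 at 0.117% ± 0.0176, IGHV3-5 at 0.0929% ± 0.0202 and IGHV3-3 at 0.0424% ± 0.0143 (n = 24 mice). The SDs of IGHV3-8 and IGHV3-1 overlapped across mice, as did those of IGHV3-4 and IGHV3-5. Within mice, each member exceeded the next in this order in 24 of 24 spleens, except that IGHV3-4 exceeded IGHV3-5 in 23 of 24.

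LG and spleen of the same mouse were then compared. Over all 24 mice the LG share exceeded the spleen share by 0.384 points, less than the spread between mice (SD 1.68, sign-flip permutation p = 0.274), and 13 mice were higher and 11 lower in the LG. The groups went apart. In NOD-FMT mice LG minus spleen was -0.933 points in the mean, with the LG lower in 8 of 10 mice (exact sign-flip permutation p = 0.0156). In PBS-T mice the mean was 1.08 points, with the LG higher in 7 of 9 mice (exact sign-flip p = 0.0547). In NC mice the mean was 1.77 points, with the LG higher in 4 of 5 (exact sign-flip p = 0.125, where 0.0625 is the smallest possible). The tissue difference itself differed by -2.01 points between NOD-FMT and PBS-T mice (exact permutation p = 0.00194) and by -2.7 points between NOD-FMT and NC mice (exact p = 0.000999). For IgA alone in both tissues these values were -1.24 (exact p = 0.0533) and -2.57 points (exact p = 0.002). This split by group was added after the pooled values had been seen, and it is not independent of the LG group comparisons above, which use the same shares.

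By gene, 2 of 6 members differed between the tissues in edgeR, where 50% of 132 V genes did. IGHV3-3, with only 6 clonotypes in the LG, was 3.1-fold lower there (log2 fold change -1.63 ± 0.51, adjusted p = 0.00731) and IGHV3-5 was 1.7-fold higher (0.76 ± 0.30, adjusted p = 0.0363). Neither held with IgA alone, where 0 members were called and the value of IGHV3-5 was -0.77. Without clonotypes of 1 count 0 members were called and IGHV3-3 was at 0.14, and with counts of consensus sequences 6 were called and IGHV3-5 was at -3.66, so that no direction is given for either gene. Of the IGHV2, IGHV5 and IGHV6 genes, 7 of 15, 11 of 18 and 1 of 4 were called.

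Clonotypes of the LG were looked up in the spleen of the same mouse. For the family, a median of 34.5% of LG clonotypes (range 3.12 to 54.5%) had a counterpart there, and for all other V genes the median was 34% (2.08 to 60.8%). The family was above the other genes in 10 of 24 mice.

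Spleen repertoires were split into unmutated IgM, mutated IgM (1 or more mismatches to the germline V gene), IgG and IgA. The family made up 4.45% ± 0.683 of clonotypes in unmutated IgM (n = 24, lowest 3.55, median 4.3, highest 6.41%) and 2.55% ± 0.608 in mutated IgM (1.55, 2.42 and 3.71%). The share fell in 24 of 24 mice, by 1.9 points in the mean (sign-flip permutation p = 1e-05, the smallest that 100000 resamples can give, adjusted p = 3e-05 over 3 compartments). It fell by 0.917 points when clonotypes of 1 count were left out and by 0.802 points at 10 or more counts. Of 103 V genes with 100 or more spleen IgM sequences, 9, none of them a member, had under 10% unmutated IgM sequences, and the fall was 1.3 points without them.

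IgG and IgA had family shares of 3.96% ± 0.859 (2.26, 3.78 and 6.37%) and 4.01% ± 0.798 (2.36, 3.82 and 5.87%). They were -0.488 and -0.44 points from unmutated IgM (sign-flip permutation adjusted p = 0.0433 and 0.0433), lower in 18 and 17 of 24 mice. Neither direction held once clonotypes of 1 count were removed, where the differences were 0.499 (p = 0.0615) and 0.764 points (p = 0.00234, permutation). No direction is therefore given for IgG and IgA.

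**Figure D3:**
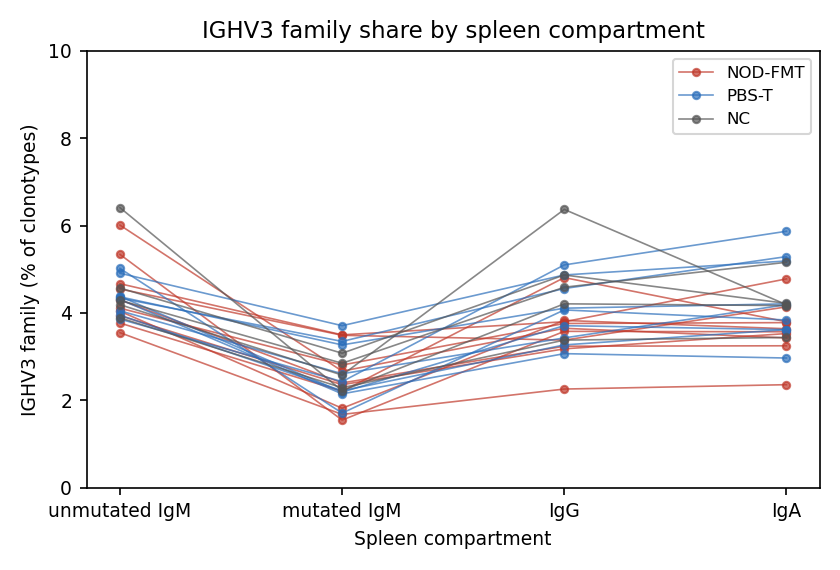
IGHV3 family share of clonotypes (%, vertical axis) in 4 compartments of each spleen, with 1 line per mouse coloured by group. Every line falls from unmutated IgM (3.55 to 6.41%) to mutated IgM (1.55 to 3.71%), and the lines of the 3 groups are intermixed.

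Within mutated IgM, 5 of 6 members were lower than in unmutated IgM in edgeR, where 74.6% of 118 V genes were called (32 higher and 56 lower). IGHV3-3 had a log2 fold change of -1.43 ± 0.21, IGHV3-8 of -0.98 ± 0.10, IGHV3-1 of -0.96 ± 0.12, IGHV3-6 of -0.84 ± 0.07 and IGHV3-4 of -0.57 ± 0.13 (adjusted p from 1.63e-21 to 3.47e-05). The calls of IGHV3-8 and IGHV3-1 held in each of 10 alternatives, while IGHV3-3, IGHV3-4 and IGHV3-6 lost theirs in 2, 1 and 1 of 10. IGHV3-5 did not pass (0.14 ± 0.12, adjusted p = 0.313). The members' median was -0.90, against -0.20 over all V genes.

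With the mice pooled, 61.3% of the spleen IgM sequences of IGHV3-5 were unmutated, against 81.8 to 92% for the 5 other members. Its mean mismatches per spleen clonotype, 0.412 ± 0.206 over mice, overlapped those of IGHV3-1 (0.337 ± 0.233). In spleen IgG and IgA the IGHV3-5 means were 1.22 ± 0.926 and 0.983 ± 0.694, against 1.69 ± 0.373 and 2.3 ± 0.493 for the family. Relative to unmutated IgM, IGHV3-5 was 1.45-fold higher in IgG (log2 fold change 0.53 ± 0.16, edgeR adjusted p = 0.00271) and 2.63-fold higher in IgA (1.40 ± 0.15, adjusted p = 9.28e-15). At 10 or more counts these values turned to -1.19 and -0.22, so that neither direction held there, and the cause was not tested. IGHV3-8 was 1.91-fold lower in IgA (-0.94 ± 0.13, adjusted p = 1.88e-10), and this call held in each of 9 alternatives. In all, 5 of 6 members were called for IgG, 4 of them lower, where 71.2% of V genes were, and 3 of 6 for IgA, 2 of them lower, where 72% were. These directions are those of the full set of clonotypes, since without clonotypes of 1 count IGHV3-1, IGHV3-5 and IGHV3-6 turned in IgG (0.02, -0.11 and 0.36) and IGHV3-3 turned in IgA (0.62). The IgG calls of IGHV3-4 and IGHV3-8 were lost in 3 and 2 of 9 alternatives. Without V genes under 10% unmutated, 2 members were called for IgG. For mutated IgM, 6 of 12 IGHV2 genes were lower and 4 higher (median log2 fold change -0.26), 9 of 13 IGHV5 genes were lower and 3 higher (-0.74), and 1 of 4 IGHV6 genes was lower (-0.15), and whether IGHV3 differed from them was not tested. For IgG, 5 IGHV2, 5 IGHV5 and 2 IGHV6 genes were lower and 4, 5 and 0 higher. For IgA, 7, 6 and 2 were lower and 4, 3 and 0 higher.

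IGHV3 clonotypes carried fewer mutations than those of other V genes in switched compartments. In spleen IgG the mean number of V gene mismatches per clonotype was 1.69 ± 0.373 for the family (lowest 0.94, median 1.64, highest 2.49) and 2.84 ± 0.465 for other V genes (1.87, 2.87 and 3.69). The family was lower in 24 of 24 mice, by 1.16 mismatches (sign-flip permutation p = 1e-05, the smallest possible, adjusted p = 2e-05 over 2 tests). Weighted by counts it was -0.629 and lower in 19 of 24 mice. In LG IgA it was 1.78 ± 0.704 against 2.35 ± 0.69, lower in 17 of 24 mice by 0.569 (permutation adjusted p = 0.00067), and at 10 or more counts the difference of -0.262 did not pass (p = 0.0973).

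Junctions were compared in unmutated IgM of the spleen, where 102081 family clonotypes were available. HCDR3 was longer in the family than in other V genes, at 11.59 ± 0.175 against 11.45 ± 0.172 residues, and the difference of 0.139 ± 0.0576 was positive in 24 of 24 mice (sign-flip permutation p = 1e-05, the smallest possible). Against the IGHV2, IGHV5 and IGHV6 genes alone it was 0.274 residues. Means of the members ranged from 10.7 ± 0.434 residues in IGHV3-4 to 12.3 ± 0.321 in IGHV3-3 (23 mice with enough clonotypes). The ranges over mice of IGHV3-3 (11.8 to 13.1) and IGHV3-8 (11.5 to 12.2) overlapped, while those of IGHV3-3 and IGHV3-4 (9.74 to 11.5) did not.

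The family joined IGHJ1 more often than other V genes did. IGHJ1 made up 20.7% ± 1.14 of family clonotypes and 15.3% ± 0.459 of the others, a difference of 5.43 points that was positive in 24 of 24 mice. The differences for IGHJ3 and IGHJ4 were -2.07 and -2.61 points, each negative in 24 of 24 mice (permutation adjusted p = 1.33e-05 for all 3). At 10 or more counts the IGHJ3 difference of -3.26 points did not pass (permutation p = 0.0881). For IGHJ2 the difference of -0.743 points (permutation adjusted p = 0.00256) turned to 4.68 points when IGHV2, IGHV5 and IGHV6 genes were the comparison, so that no direction holds for it. The IGHJ shares of a mouse add up to the whole, so the differences of the IGHJ genes are not independent of each other.

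Each of the 6 members had a higher mean IGHJ1 share than the other V genes, from 17% ± 1.21 in IGHV3-6 to 31.7% in IGHV3-8. IGHV3-3 joined IGHJ4 in 58.8% ± 7.67 of clonotypes and IGHJ2 in 7.14% ± 3.88. IGHV3-4 joined IGHJ2 in 45.1% ± 5.64, and IGHV3-8 joined IGHJ1 in 31.7% ± 2.98. IGHJ3 took 28.4% ± 2.2 of IGHV3-1 and 25.9% ± 1.46 of IGHV3-6 clonotypes, the members of highest identity, and 7.05 to 9.87% of the 4 others. For other V genes it was 24.7% ± 0.765, so the lower IGHJ3 share of the family was not seen in IGHV3-1 and IGHV3-6. IGHJ4 took 21.6% ± 2.29 of IGHV3-1, 17.7% ± 4.62 of IGHV3-4 and 23.5% ± 1.4 of IGHV3-6 clonotypes. For other V genes the IGHJ4 share was 26.7% ± 1.22. The lower IGHJ4 share of the family was not seen in IGHV3-3, IGHV3-5 (27.6% ± 4.03) and IGHV3-8 (27.4% ± 3.05). These values are descriptions without a test between members.

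**Figure D4:**
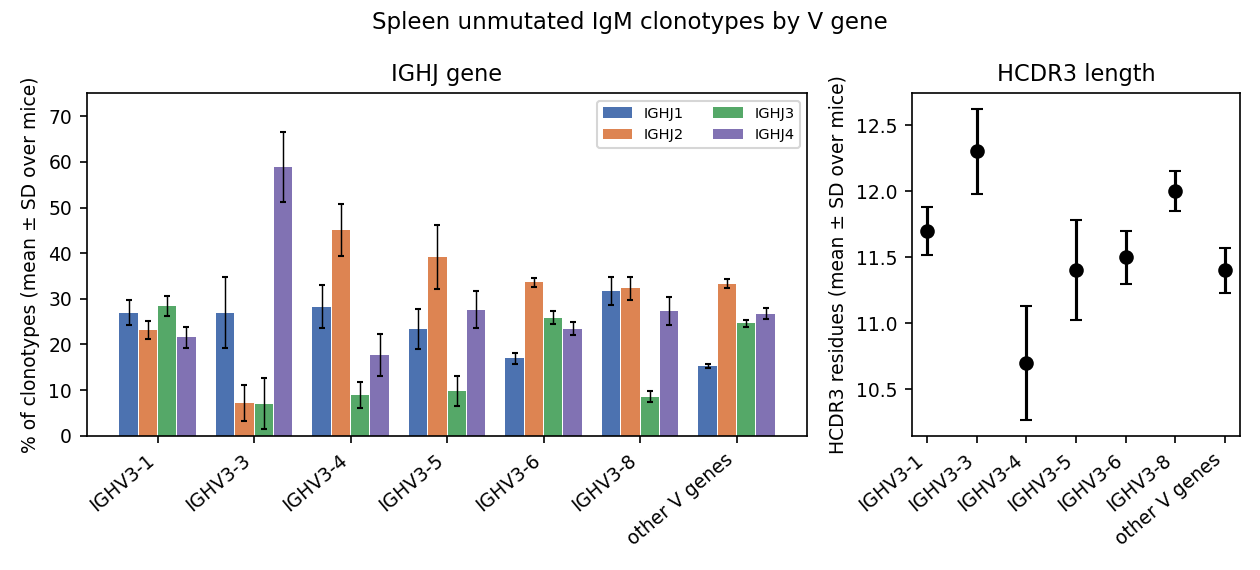
Left, percentage of unmutated spleen IgM clonotypes that use each IGHJ gene, by member gene and for all other V genes (bars, mean ± SD over mice), and right, their HCDR3 length in residues (points, mean ± SD). IGHV3-3 has an IGHJ4 share of 58.8%, and mean HCDR3 lengths run from 10.7 residues in IGHV3-4 to 12.3 in IGHV3-3, which overlaps IGHV3-8.

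The V genes whose share followed that of the family most closely over the 24 spleens were IGHV2-6-1 (Pearson r = 0.74, Spearman rho = 0.79), IGHV10-3 (0.67 and 0.69) and IGHV5-15 (0.55 and 0.47). These are descriptions over 24 libraries that differ in depth and in the share of mutated sequences, and IGHV2-6-1 is among the 9 V genes with under 10% unmutated IgM sequences.

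Of 1856 distinct family clonotypes in the LG, 145 were in 2 or more mice (7.81%, against 6.01% for all V genes). Both percentages were taken after removal of sequences identical in more than 2 mice. Summed over mice, PBS-T mouse 5 held 1091 of 2059 family clonotypes and 17213 of 40605 of all V genes, so that library weighs heavily in both. The clonotype in the most mice was IGHV3-6/IGHJ2 ARGGDYFFDY, in 10 mice (3 NOD-FMT, 4 PBS-T and 3 NC), with 198 counts, all of them IgA, and 7.69% of its sequences unmutated. IGHV3-6/IGHJ2 ARGGDYYFDY and IGHV3-6/IGHJ1 ARGGDWYFDV were in 6 mice each and are of the same length. Their most counted HCDR3 nucleotide sequences are shown because they recur between mice, with the bases that differ from ARGGDYYFDY in capitals.
ARGGDYYFDY: gcaagagggggggattactactttgactac
ARGGDYFFDY: gcaagagggggggattactTctttgactac
ARGGDWYFDV: gcaagagggggggaCtGGtacttCgaTGTc

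Other clonotypes shared by many mice were IGHV3-6/IGHJ1 ARYFDV (6 mice) and IGHV3-6/IGHJ2 AREDYGNLFDY (5 mice, none of them NOD-FMT). In the spleen, IGHV3-6/IGHJ2 ASYSNYDY and ASYSNFDY were each in 19 of 24 mice, IGHV3-8/IGHJ1 ARLTGTWYFDV in 18, and ARGGDYYFDY and ARGGDWYFDV in 17 each. Each of these spleen clonotypes was found in all 3 groups.

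Among the sequences left by the filter on shared sequences, the family clonotypes of highest LG share were private or nearly so. A large clonotype whose main sequence was identical in more mice than the filter allows could be missing from this ranking. The values therefore cannot show whether large family clonotypes were private before the filter. IGHV3-8/IGHJ4 ARWTVQATRAMDY took 5.59% of the counts of NC mouse 1, IGHV3-8/IGHJ4 ARKPFGLYAMDY 4.6% in NOD-FMT mouse 9 and IGHV3-8/IGHJ1 ARGGYDVYWYFDV 4.06% in NC mouse 4. IGHV3-6/IGHJ1 ARGDYGNWYFDV took 3.64% in NOD-FMT mouse 7 and IGHV3-6/IGHJ2 AREGLSFDY 3.16% in PBS-T mouse 9. The first 4 were at least 95.5% IgA by counts, whereas AREGLSFDY was 63.4% IgM.

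IGHV3-4 clonotypes with a very short HCDR3 of 6 residues were singled out after their values had been seen, and they are described without a test. In the LG of NOD-FMT mice they were 18 of 28 IGHV3-4 clonotypes (64.3%), against 2 of 43 in PBS-T (4.65%) and 1 of 6 in NC mice. Of the 18, NOD-FMT mice 2, 3 and 10 held 5, 6 and 4, and only 7 had 2 or more counts. The library of PBS-T mouse 5, which stood apart in depth, held 38 of the 43 PBS-T clonotypes and both of those with 6 residues, and without it PBS-T had 0 of 5. In the spleen the same class made up 11, 11.7 and 11.3% of IGHV3-4 clonotypes in the 3 groups. Among LG clonotypes of 10 or more counts, 7 of 10 in NOD-FMT mice had 6 residues, in 5 mice, against 0 of 10 in PBS-T (8 of them from mouse 5) and 0 of 2 in NC mice.

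They took 3.03% of the LG counts of NOD-FMT mouse 3, 1.24% of mouse 10, 0.811% of mouse 2, 0.177% of mouse 8, 0.142% of mouse 1 and 0.000774% of mouse 5, and none in the 4 other NOD-FMT mice. In the controls they were found in PBS-T mouse 5 (0.00369%) and NC mouse 1 (0.00124%, 1 count). In mice 1, 3 and 10 such a clonotype was the largest of the whole family. NOD-FMT mice 1, 3 and 8 are merged libraries and mice 2, 5 and 10 are not.

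The 6 sequences of highest counts began with the residues ARD and ended with Y, used IGHJ2 or IGHJ3, and were IgA in 100% of counts. The same first and last residues occur in family clonotypes of longer HCDR3, such as IGHV3-6/IGHJ2 ARDHYYGFDY in the LG of NOD-FMT mouse 5. The nucleotide sequences of the 6 are shown with the bases that differ from ARDTTY in capitals, all of which lie between the shared ends.
ARDTTY: gcaagagatactacttac
ARDSAY: gcaagagatTctGcttac
ARDQGY: gcaagagatCAGGGCtac
ARDFAY: gcaagagatTTtGcttac
ARDGNY: gcaagagatGGtaACtac
ARDGGY: gcaagagatGGGGGCtac

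ARDTTY was in the LG of NOD-FMT mouse 2 (2000 counts), ARDSAY in mouse 3 (1858 counts) and mouse 5 (1 count), and ARDQGY in mouse 10 (1514 counts) and mouse 8. ARDFAY was in mouse 10, ARDGNY in mouse 1 and ARDGGY in mouse 2. ARDTTY, ARDSAY, ARDQGY and ARDGNY were found in the spleen only of mice that held them in the LG, with 102, 778, 17 and 10 counts. ARDFAY was in the spleen of mouse 10 and of 2 other NOD-FMT mice, and ARDGGY in the spleens of NOD-FMT mouse 3 and PBS-T mouse 7 but not in that of mouse 2. Count-weighted mismatches to IGHV3-4 ranged from 0.0141 to 0.461 per sequence in these 6.

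**Figure D5:**
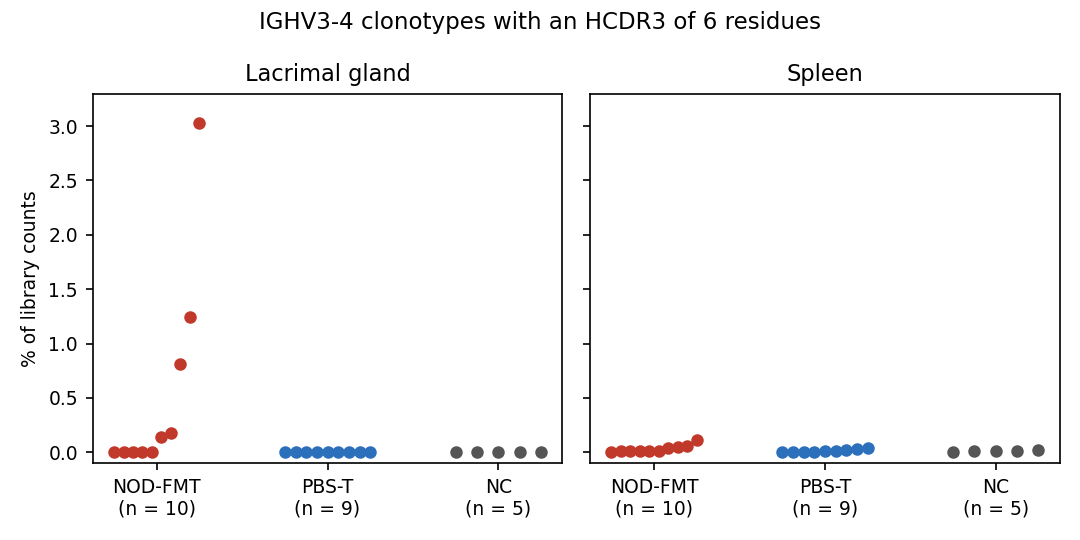
Share of library counts (%, vertical axis) held by IGHV3-4 clonotypes with an HCDR3 of 6 residues, 1 point per mouse, in the LG (left) and the spleen (right). NOD-FMT mice 2, 10 and 3 reach 0.811, 1.24 and 3.03% in the LG, while the control LGs do not exceed 0.00369% and no spleen exceeds 0.115%.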

How the data were processed

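Heavy chain BCR libraries of LG and spleen were analysed for 10 NOD-FMT, 9 PBS-T and 5 NC mice, 48 libraries in all. The authors merged paired reads with PEAR, filtered them by quality, built consensus sequences per UMI with Clustal Omega, took isotypes from IMGT references and annotated rearrangements by IgBLAST, and deposited for each sequence an unnormalized count of consensus sequences and how many V gene positions were mutated. The processing notes of the submitters name mm10, and gene positions and exons were read from GRCm38 with the GENCODE annotation. Depth was 2878417 counts in the LG and 11666610 in the spleen, and the numbers of clonotypes limit the precision, above all in the LG.

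Sequences identical in over 2 mice were discarded within each tissue (9.83% of LG and 9.84% of spleen counts), and clonotypes were formed from IGHV gene, IGHJ gene and HCDR3 amino acids. The loss was uneven, from 360216 to 216868 counts in the LG of PBS-T mouse 5 and from 341412 to 261502 in NOD-FMT mouse 7. The paper reports a much smaller removed part in both tissues for its own filter, above all in the LG. The sequences kept here are therefore not the same set as those of the paper. Shares of counts refer to the counts that remained. Group differences were tested by two-sided exact permutation over mice, with Benjamini-Hochberg adjustment over 6 comparisons, and differences within mice by sign-flip permutation. LG and spleen of a mouse carry the same number. Numbers of clonotypes per V gene were fitted with edgeR 4.0.16 (quasi-likelihood, genes with 10 or more clonotypes, adjusted p under 0.05 over all V genes tested) and with DESeq2 1.42.0 as an alternative, in R 4.3.3. SciPy 1.17.1, pandas 2.3.3 and NumPy 2.4.6 were used in Python 3.11.15. The fit for V genes was tested on data simulated for the LG, NOD-FMT against PBS-T. It recovered a mean of 28.8% of 2-fold changes, set only in V genes above a minimum mean number of clonotypes, with a mean of 0.3 false calls.

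The values named were those of all 6 members, the 3 V genes most correlated with the family over the spleens (log2 of percent plus 0.01), counts called among IGHV2, IGHV5 and IGHV6 genes, the 5 family clonotypes in the most mice of each tissue, and the 5 of highest share in the LG. IGHV3-4 clonotypes of 6 residues were added after their values had been seen. The members and lists were chosen with earlier results of these data known. Alternatives were other filters on shared sequences and on counts, shares of counts, the log2 scale, TMM, DESeq2, single compartments, merged and other LG libraries, a replicate block and each mouse left out. The minimum of 10 counts, the removal of rare allele calls and of V genes with under 10% unmutated sequences, IgA alone in the other LG libraries, the tissue difference by group and the IGHV3-4 counts without PBS-T mouse 5 were chosen after seeing the data. The match of the amplification primers to the member genes is not reported here.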

Additional observations from a re-analysis of the deposited data

Results flagged for a closer look

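The within-mouse difference between LG and spleen shares of the IGHV3 family differed between groups. This uses the same LG shares as the group comparisons of the LG (-2.04 and -2.96 points). As the spleen differences were -0.0305 and -0.266 points, it is not a separate result. The tissue difference was tested all the same. It differed by -2.01 points between NOD-FMT and PBS-T mice and by -2.7 points between NOD-FMT and NC mice (exact permutation p = 0.00194 and 0.000999). For IgA clonotypes alone the latter was -2.57 points (exact permutation p = 0.002), while the former, at -1.24 points, did not pass (p = 0.0533).

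A single mouse lay far from the others of its group in 7 of 57 groups of values tested, where chance gives about 1 in 20. In the LG, NOD-FMT mouse 3 was highest for IGHV3-1 (1.05% of clonotypes, next 0.559%) and for IGHV3-5 (0.527%, next 0.244%) among 759 clonotypes, and NOD-FMT mouse 7 was the only one of its group with IGHV3-3 (0.0399%, 1 clonotype), where any single clonotype would stand apart because all other values were 0. In the spleen, NC mouse 2 was highest for the family in unmutated IgM (6.41%, next 4.57%), for IGHV3-5 (0.145%, next 0.0862%) and for IGHV3-8 (0.798%, next 0.571%), and NOD-FMT mouse 3 was highest for IGHV3-3 (0.0763%, next 0.0492%).

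IGHV3-2, which the annotation lists as a pseudogene and which was not a member, was assigned to 115 LG sequences and to 4 spleen sequences. It occurred in 11 of 11 merged LG libraries and in 4 of 13 others, and its source was not tested.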

How the results depend on the processing

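Of 688 alternative values for the main results, which leave out the log2 fold changes of single members, 620 were counted as unchanged. For numbers of members called, this meant an equal or similar number, whichever genes and directions were behind it. For all other values it meant the same direction and the same side of the threshold, including values that passed in neither setting. The lower family share of mutated IgM kept its direction and its side under every alternative (-3.02 to -0.802 points). So did the HCDR3 length, IGHJ1 and IGHJ4 differences and the mutations of spleen IgG. Where a call was lost or a value turned, the cause was not tested. Under the minimum of 10 counts and in single LG strata fewer clonotypes or mice enter. Precision is limited by the 560 to 2504 clonotypes of the LG libraries other than PBS-T mouse 5.

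For LG shares, NOD-FMT minus PBS-T (main -2.04 points) was -1.6 at 10 or more counts (p = 0.0543), -0.623 for shares of counts (p = 0.583), -2.53 in the other LG libraries alone and -2.45 for their IgA alone (p = 0.0635 each, all by exact permutation), and -2.3 to -1.75 with a mouse left out. NOD-FMT minus NC was -2.6 for shares of counts (exact permutation p = 0.0849) and -3.24 to -2.47 with a mouse left out. In the spleen, NOD-FMT minus PBS-T was 0.0724 in unmutated IgM alone and -0.171 to 0.0675 with a mouse left out. LG minus spleen was -0.322 for shares of counts.

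For IgG minus unmutated IgM the values were 0.499, 0.205, -0.131 and -0.356 points with clonotypes of at least 2 counts, of at least 10 counts, for shares of counts and without V genes under 10% unmutated, and -0.604 to -0.407 with a mouse left out. For IgA they were 0.764, 0.513, -0.0619 and -0.323 in the same order, -0.389 without the filter on shared sequences, and -0.546 to -0.347. IGHJ2 was -0.115 and 2.53 points at 2 and 10 counts, and 4.68 against IGHV2, IGHV5 and IGHV6. At 10 or more counts IGHJ3 was -3.26 and the mutation difference of LG IgA -0.262, neither past the threshold.

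Member genes called in the LG against PBS-T fell from 1 to 0 with counts of consensus sequences, in the merged, the other LG libraries and the latter's IgA, and with a replicate block. Against NC they fell to 0 at 10 or more counts, with counts of consensus sequences, with TMM, in the other LG libraries and in their IgA, and were 0 to 1 with a mouse left out. LG against spleen gave 0 at 2 counts, 1 at 10 counts, 6 with counts of consensus sequences, 1 with DESeq2 and 0 for IgA alone. Mutated IgM gave 3 at 10 counts and IgG 2 without V genes under 10% unmutated.

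Log2 fold changes that turned, with their setting, were as follows. In LG against spleen, IGHV3-3 was 0.14 at 2 counts, and IGHV3-5 was -0.43 at 10 counts, -3.66 with counts of consensus sequences and -0.77 for IgA alone. In IgG, IGHV3-1 was 0.02 at 2 counts, IGHV3-5 was -0.11, -1.19 and -1.6 at 2 counts, 10 counts and with counts of consensus sequences, and IGHV3-6 was 0.36 and 0.46 at 2 and 10 counts. In IgA, IGHV3-3 was 0.62 and 1.38 at 2 and 10 counts, and IGHV3-5 was -0.22 at 10 counts and -0.37 with counts of consensus sequences.

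NOD-FMT and PBS-T mice share replicate numbers but are different animals. Deviations of same-numbered mice correlated at -0.30 to 0.40 in the LG and -0.55 to 0.66 in the spleen, above 0.1 in 3 and 4 of 9 pairs, so the numbers do not pair the mice. With the replicate block the family difference was -2.02 points in the LG (p = 0.0156, exact permutation) and 0.0141 in the spleen, and IGHV3-6 in the LG had a log2 fold change of -1.03 (edgeR adjusted p = 0.0896). LG minus spleen without the block of mouse was 0.384 points (permutation p = 0.308).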
